A study of Mus musculus with 6 samples.

Results

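Metallothioneins and the carriers that move zinc between the cytosol, the outside of the cell and the secretory pathway were followed in mouse colon epithelium with and without Sel1L. The genes are Mt1, Mt2, Mtf1, Slc30a1, Slc30a5, Slc30a7, Slc39a4, Slc39a5, Slc39a7 and Slc39a14, 10 of the 19936 genes measured. Each was read from a probe set whose platform annotation names that gene alone. Probe sets were chosen by their mean level over all 6 arrays, the brightest per gene, but each of these genes had only 1, so that no measured value decided among them and the genotype did not enter. The genes were, however, picked with earlier results of these arrays known, Mt1 among them.

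The tissue was colon epithelium. The mice were males of the C57BL/6J background, at an age of 8 weeks, with 3 arrays labelled wild type and 3 labelled Sel1L knockout (Sel1L-delta-IEC). In the knockout, exon 6 of a floxed Sel1L allele is removed by a Cre recombinase that the villin-1 promoter drives, so the deletion is meant for intestinal epithelial cells, and other cells of the tissue keep the gene. The alleles carried by the wild type mice beyond that label are not stated, and no treatment is named. Sel1L is the adaptor of the HRD1 ubiquitin ligase, which removes misfolded proteins from the endoplasmic reticulum (ER), and the study asks about the ER stress sensor IRE1α as a protein cleared by this route.

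Metallothioneins are small cysteine-rich proteins of the cytosol that bind zinc, copper and cadmium. Their genes are switched on by the zinc-sensing transcription factor MTF1 through metal response elements, short motifs in their promoters, and also by glucocorticoids, oxidants and inflammatory signals. Carriers of the SLC30 (ZnT) family move zinc out of the cytosol, across the plasma membrane or into organelles, and carriers of the SLC39 (ZIP) family bring it into the cytosol from outside the cell or from organelles. In the intestine these carriers take up dietary zinc, and those of the ER and Golgi supply enzymes and chaperones of the secretory pathway that need the metal.

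Bases before the annotated starts of Mt1 and Mt2 are shown because the transcripts of these genes, which share this control, came out differently in these arrays. The genes lie next to each other on chromosome 8, with no other protein-coding gene between them in RefSeq. The stretches below are the 250 bases before the transcript start in the RefSeq promoter table (build GRCm38.p6), from chr8:94178839-94179088 for Mt1 and chr8:94172368-94172617 for Mt2, both on the plus strand. For Mt1, RefSeq's gene table places the start of the gene 206 bases upstream of that start, inside the stretch shown, so which bases count as promoter depends on the start taken; for Mt2 the tables give the same start. Capitals mark the core of the metal response element, searched as TGCACNC or TGCGCNC on both strands.
Mt1: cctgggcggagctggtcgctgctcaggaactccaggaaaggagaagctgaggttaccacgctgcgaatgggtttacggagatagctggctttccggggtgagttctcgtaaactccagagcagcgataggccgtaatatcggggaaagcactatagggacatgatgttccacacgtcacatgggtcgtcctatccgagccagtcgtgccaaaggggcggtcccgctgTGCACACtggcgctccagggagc
Mt2: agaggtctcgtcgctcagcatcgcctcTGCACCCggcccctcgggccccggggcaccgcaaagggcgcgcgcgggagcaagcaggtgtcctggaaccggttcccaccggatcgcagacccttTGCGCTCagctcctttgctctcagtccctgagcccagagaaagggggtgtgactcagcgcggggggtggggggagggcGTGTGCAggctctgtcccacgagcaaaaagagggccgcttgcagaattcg
Over windows that also take in the 50 bases after the start, Mt1 held 3 such cores, 2 of them after the start, and Mt2 held 4. The cores after the start, at bases 3 to 9 and 21 to 27 for Mt1 and 5 to 11 for Mt2, lie outside the stretches shown. Sequence beyond these windows was not searched. With the start of Mt1 unsettled, neither these counts nor the capitals are a comparison of the promoters. Of all 32851 windows of that length in the table, 25.7% held at least 1 core, 1.97% at least 3 and 0.517% at least 4. The Mt2 window also matched the antioxidant response element, TGACNNNGC, once, as did 12.4% of windows. Such matches are letters in a window and were not tested as binding sites.

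Mt1 had the smallest p of all 19936 genes in the comparison of knockout with wild type. Its wild type arrays read 10.38, 10.37 and 10.29 and its knockout arrays 12.19, 12.24 and 12.20, as log2 levels after RMA, the method that background-corrects, normalizes and summarises Affymetrix probes. All 3 knockout arrays lay far above all 3 wild type arrays, and the spread inside each group was small, with 6.1% of genes having a smaller SD among the knockout arrays. Mt1 rose by 1.87 ± 0.058 (SE) on the log2 scale, a 3.65-fold increase (limma's moderated test, Benjamini-Hochberg adjusted p = 1.0e-05, n = 3 arrays a group). The change stayed between 1.84 and 1.88 with each array left out in turn, with an adjusted p of at most 0.00029.

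Mt2 did not follow Mt1 in every knockout array. Its wild type arrays read 10.79, 10.62 and 10.80 on the log2 scale. Knockout arrays 1 and 2 read 11.32 and 11.42, above every wild type array, whereas knockout array 3 read 10.24, below every wild type array. The groups therefore overlapped, and the mean difference of 0.26 ± 0.27 (SE) did not pass the test (limma's adjusted p = 0.75). Without knockout array 3 the difference was 0.63, with limma's adjusted p = 0.025, whereas without knockout array 1 or 2 it was 0.091 or 0.043 (adjusted p = 0.93 and 0.97). The call and the size of the difference thus rested on which knockout arrays were used.

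The SD of Mt2 among the knockout arrays, 0.66 on the log2 scale, exceeded that of 99.8% of genes, against 63.0% for its SD of 0.10 among the wild type arrays. Of all 19936 genes, Mt2 was the one in which knockout array 3 lay farthest below both other knockout arrays, and the only one where that distance was at least 1. This ranking was made after the values of Mt2 had been seen. For all genes together, knockout array 3 lay at least 0.5 below both other knockout arrays in 18 genes, against 17 and 16 genes for knockout arrays 1 and 2. It lay at least 0.5 above them in 61 genes, against 26 genes for each of the others. In the same array Mt1 stood at 12.20, between the other 2 knockout arrays.

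Subtracting Mt2 from Mt1 within each array removes what the probe sets share, such as array-wide brightness. This log2 difference was -0.41, -0.25 and -0.51 in the wild type arrays and 0.87, 0.82 and 1.97 in the knockout arrays. It was 1.61 higher in the knockout on average, without overlap between the groups. The contrast was formed with the values of both genes known, which fixed this separation, so it is a description, and the wide value in knockout array 3 restates the low Mt2 of that array. The transcripts of these genes are similar in sequence, so each probe set may also read part of the other, and this was not tested.

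**Figure D1:**
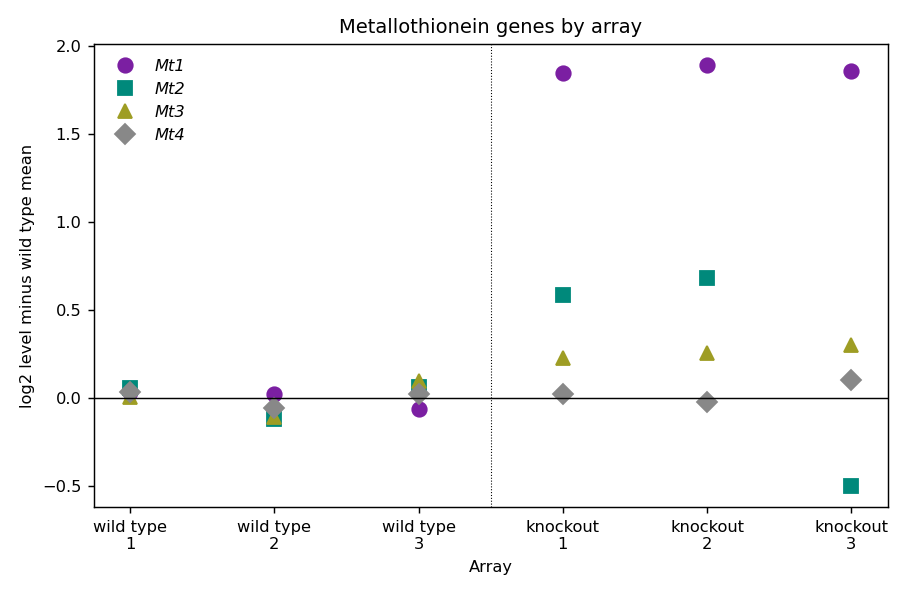
Log2 level of the 4 metallothionein genes in each array, minus that gene's wild type mean (vertical axis), for the 3 wild type and 3 knockout arrays (horizontal axis), with 1 point per gene and array. Mt1 sits between 1.85 and 1.89 in all 3 knockout arrays, whereas Mt2 sits at 0.59 and 0.68 in knockout arrays 1 and 2 and at -0.50 in knockout array 3.

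The other metallothionein genes, Mt3 and Mt4, lie in the same cluster on the far side of Mt2. Mt3, best known from the brain, read 7.99, 7.87 and 8.08 in wild type and 8.21, 8.24 and 8.28 in the knockout. Its groups did not overlap, but the difference of 0.26 ± 0.070 (SE) was not called (limma's adjusted p = 0.13). Mt4, best known from stratified epithelium, differed by 0.035 ± 0.063, and its groups overlapped. On the other side of Mt1 the nearest protein-coding genes, Nup93, a nuclear pore gene, and Slc12a3, a sodium chloride cotransporter gene, differed by -0.10 and 0.038. Herpud1, an ER stress gene of the degradation pathway, lies just beyond Slc12a3 and rose by 0.73 (limma's adjusted p = 0.018). These neighbours were taken by position and named after their values were seen.

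Likeness to Mt1 was measured as the mean absolute difference, over the 6 arrays, between log2 values from which each gene's wild type mean had been subtracted. Of 18706 other genes, with predicted genes left out, the 5 nearest were Nucb2 (0.30), Pck2 (0.34), Derl3 (0.37), Sdf2l1 (0.38) and Psat1 (0.40). Nucb2 encodes a calcium-binding protein of the secretory pathway, Pck2 a mitochondrial carboxykinase, Derl3 and Sdf2l1 proteins of ER quality control, and Psat1 an enzyme of serine synthesis. Mt2 stood at rank 708 in order of distance, at 0.85. The distance keeps the size of the change, so only genes that rose strongly can lie near Mt1. By size of rise over all genes Mt1 ranked 6, and Nucb2, Pck2, Derl3, Sdf2l1 and Psat1 ranked 11, 12, 2, 16 and 14. Their nearness therefore restates their rise. The 5 genes nearest to Mt2 were Nrn1 (0.14), Pcdhb1, Olfr734, Lgals2 and Slc16a6 (the last 4 all at 0.18). By distance from Mt2, Mt1 stood at rank 18683 of 18706.

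Across the 10 genes, 2 rose and 1 fell at an adjusted p under 0.05, Mt1 and Slc39a7 higher and Slc39a4 lower. Over all genes 1.63% were called, 0.918% higher and 0.712% lower in the knockout, 325 genes in all. The median change of the 10 genes was 0.14 on the log2 scale, against 0.019 for all genes tested. The groups did not overlap in 5 of the 10 genes, 4 higher and 1 lower in the knockout. Of all genes 19.4% did not overlap, 11.4% higher and 7.98% lower. Since these genes were selected with results known, their share is a description.

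**Figure D2:**
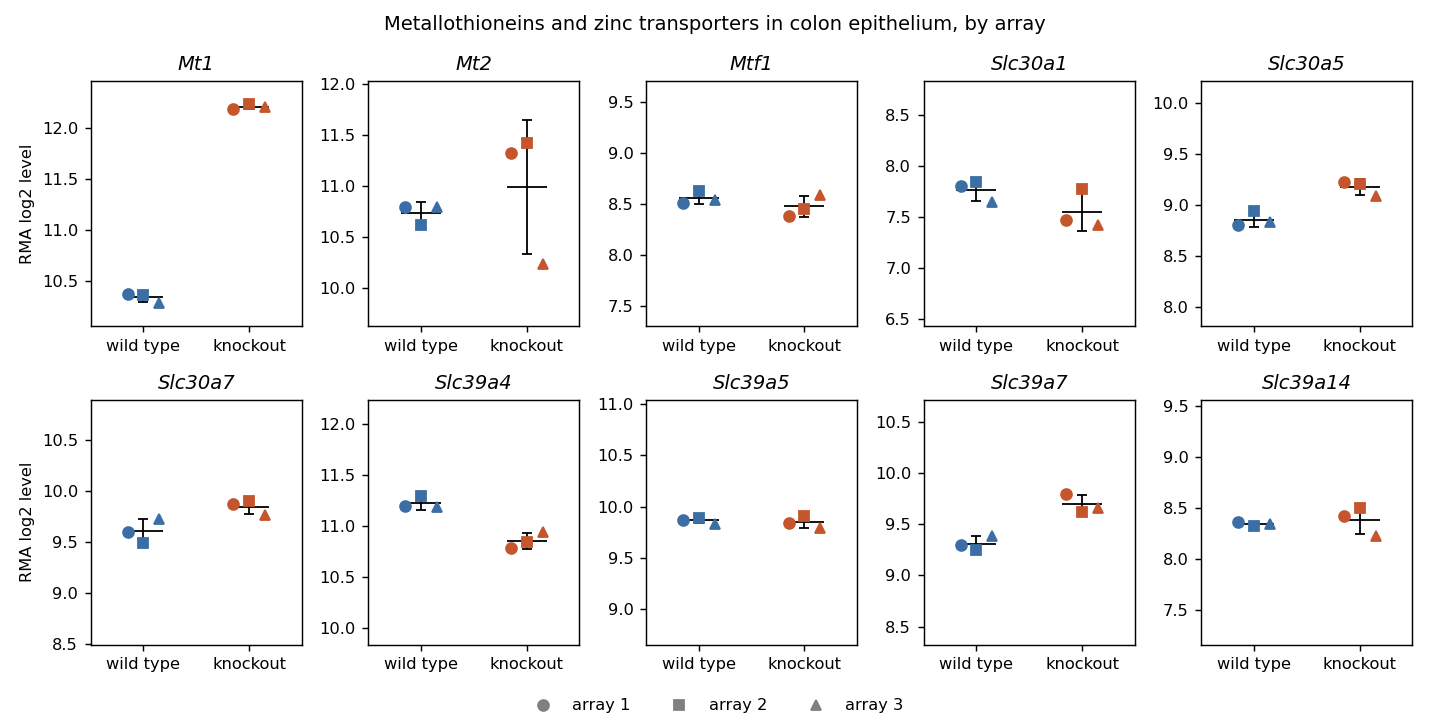
RMA log2 level (vertical axis) of the 10 genes, 1 panel per gene, in 3 wild type and 3 knockout arrays, with the array's number shown by the marker and the mean ± SD of each group in black. Every panel spans the same log2 range, so that changes can be compared across panels, while levels of different probe sets cannot. Mt1 separates widely, Slc39a4, Slc39a7, Slc30a5 and Slc30a7 separate narrowly, and Mt2 has 1 knockout array below all wild type arrays.

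Mtf1, which encodes the zinc sensor itself, showed no change that passed the test. It read 8.52, 8.63 and 8.55 in wild type and 8.39, 8.46 and 8.59 in the knockout, so the groups overlapped. The difference was -0.083 ± 0.072 (SE), with limma's adjusted p = 0.69. The activity of MTF1, which depends on zinc binding to the protein, was not measured here.

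Slc30a1 encodes ZnT1, the exporter of the plasma membrane and a known MTF1 target like the metallothioneins. Its wild type arrays read 7.81, 7.84 and 7.64 and its knockout arrays 7.47, 7.77 and 7.43 on the log2 scale. Knockout array 2 lay among the wild type arrays and the other 2 lay below them, opposite in sign to Mt1. The difference of -0.21 ± 0.10 (SE) was not called (limma's adjusted p = 0.43). Its promoter window held 2 metal response cores, a number reached by 7.11% of windows.

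Slc39a4 encodes ZIP4, the importer of the apical membrane through which intestinal cells take up dietary zinc, and it was the 1 gene of the 10 that fell. It read 11.20, 11.30 and 11.19 in wild type and 10.78, 10.85 and 10.94 in the knockout. Every knockout array lay below every wild type array. The level fell by 0.37 on the log2 scale ± 0.068 (SE), so that wild type was 1.29-fold higher (limma's adjusted p = 0.037). The call ended whichever array was left out, with adjusted p between 0.056 and 0.14, while the change kept its sign, from -0.41 to -0.33.

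Slc39a5 encodes ZIP5, an importer of the basolateral side of intestinal cells. It read 9.87, 9.89 and 9.83 in wild type and 9.84, 9.90 and 9.79 in the knockout, with overlapping groups. The difference was -0.018 ± 0.059 (SE), with limma's adjusted p = 0.93. Slc39a14 encodes ZIP14, a carrier of zinc, iron and manganese that in liver is induced by inflammation and ER stress. It read 8.37, 8.32 and 8.34 in wild type and 8.42, 8.50 and 8.23 in the knockout. The difference was 0.037 ± 0.078 (SE), with limma's adjusted p = 0.89, and knockout array 3 was the lowest of the 6 arrays, as it was for Mt2.

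Of the 3 ER and Golgi carriers in this set, Slc39a7 passed the test and Slc30a5 and Slc30a7 did not. The groups of all 3 were without overlap, higher in the knockout, as were those of 11.4% of all genes. Slc39a7 encodes ZIP7, which releases zinc from the ER into the cytosol. It read 9.29, 9.25 and 9.39 in wild type and 9.80, 9.62 and 9.67 in the knockout, without overlap. Slc39a7 rose by 0.38 ± 0.071 (SE) on the log2 scale, a 1.31-fold increase (limma's adjusted p = 0.041). The call ended with any array left out, with adjusted p from 0.051 to 0.15, and with each array centred on its median, where the adjusted p was 0.057.

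Slc30a5 encodes ZnT5, which together with ZnT6 loads zinc into the early secretory pathway. Its arrays read 8.80, 8.94 and 8.84 in wild type and 9.23, 9.21 and 9.09 in the knockout, and the groups did not overlap. The difference of 0.32 ± 0.068 (SE) was not called (limma's adjusted p = 0.068). It did pass after quantile normalization (adjusted p = 0.043), without the dimmest 25% or 50% of genes (0.042 and 0.023) and with an intensity trend in the test (0.023). It did not pass under the other alternatives, among them median centring (0.10) and all probe sets together (0.14), nor with any array left out (0.088 to 0.23). Slc30a6, its partner, differed by 0.027 ± 0.060 and was not called.

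Slc30a7 encodes ZnT7, a further loader of the Golgi and early secretory pathway. It read 9.60, 9.49 and 9.73 in wild type and 9.87, 9.90 and 9.77 in the knockout. The highest wild type array and the lowest knockout array were only narrowly apart. The difference of 0.24 ± 0.078 (SE) was not called (limma's adjusted p = 0.22).

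The unfolded protein response element TGACGTGG, a motif bound by the ER stress factors XBP1 and ATF6, was searched on both strands in the 9 promoter windows of the 8 genes that matched the table. Slc39a4 and Slc39a14 had no window there. Slc30a5 and Slc39a5 each had 1 match, against 0.676% of all windows with at least 1. They are shown because their transcripts did not move alike, with Slc30a5 separated between the groups and Slc39a5 not. The 30 bases around each match, with the motif in capitals, are from chr13:100833403-100833432 and chr10:128400500-128400529 of build GRCm38.p6, both on the minus strand.
Slc30a5: gccggggcggaTGACGTGGcccggtaacgt
Slc39a5: agccctccttgTGACGTGGcttccactgca
Both matches also fit the antioxidant response element letters, which overlap them. The Slc30a5 match lies after the start, at bases 7 to 14 of the transcript. The Slc39a5 match lies at -52 to -45 from 1 of its 2 starts in the table, in the window of that start alone. None of the 9 windows matched the ER stress element, the ATF4 composite site TGATGNAAN or the palindromic glucocorticoid response element, which 0.119%, 3.95% and 0.00913% of all windows did.

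The remaining zinc genes came from a list of 21, made of the other SLC30 and SLC39 carriers, Mt3, Mt4, the vesicular zinc carrier gene Tmem163 and the zinc receptor gene Gpr39. Of these, 1 rose and none fell at an adjusted p under 0.05, against 0.918% and 0.712% of all genes. An unadjusted p under 0.05 was reached by 5 of them and by 13.3% of all genes. The 1 that rose was Slc39a13, which encodes ZIP13, a carrier that releases zinc from the Golgi and vesicles. It read 7.88, 7.74 and 7.96 in wild type and 8.44, 8.32 and 8.32 in the knockout. Slc39a13 rose by 0.50 ± 0.076 (SE) on the log2 scale without overlap (limma's adjusted p = 0.018). The call ended without wild type array 1 or 2 or knockout array 1 or 2, with adjusted p up to 0.084. It also ended with all probe sets tested together (limma's adjusted p = 0.065).

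Over the whole families, 2 of 14 SLC39 genes rose and 1 fell, and 0 of 10 SLC30 genes were called at the adjusted threshold, which 1.63% of all genes passed. The difference between the families was not tested, and the 3 SLC39 calls are those of Slc39a4, Slc39a7 and Slc39a13, which were lost with arrays left out. Without that adjustment, limma gave 4 SLC30 genes a p under 0.05, against 13.3% of all genes, namely Slc30a2, Slc30a5, Slc30a7 and Slc30a10. The SLC39 genes with such a p were Slc39a4, Slc39a7, Slc39a10 and Slc39a13. Slc30a2, a vesicular zinc carrier gene, differed by 0.26 ± 0.077 (adjusted p = 0.18). Slc30a10, which encodes a manganese exporter, differed by -0.46 ± 0.18 (adjusted p = 0.32), with a wild type range from 7.88 to 8.62. Slc39a10, which encodes a plasma membrane importer, differed by -0.19 ± 0.061 (adjusted p = 0.20). The median change of all 24 carriers was 0.055, and 11 of them lay within 0.1 of 0 on the log2 scale.

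**Figure D3:**
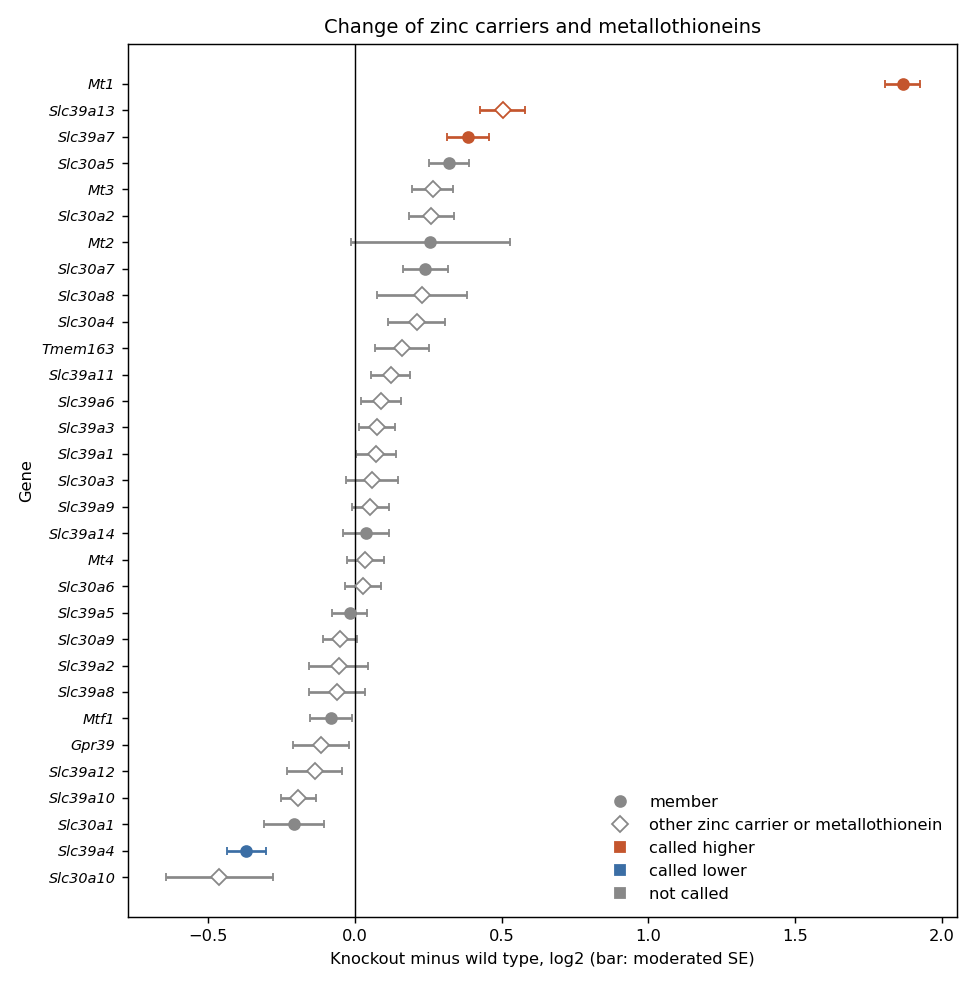
Log2 level in the knockout minus that in wild type, with bars for the moderated SE (horizontal axis), for the 10 genes (filled circles) and 21 other zinc carriers and metallothioneins (open diamonds), ordered by change (vertical axis). Mt1 at 1.87 stands far from the rest, which lie between -0.46 and 0.50, and Slc39a13, Slc39a7 and Slc39a4 are the other called genes.

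Among 25 measured copper and iron genes, 1 fell and none rose, against 0.712% and 0.918% of all genes, with a median change of -0.034. The groups did not overlap in 7 lower and 2 higher genes, against 7.98% and 11.4% of all genes. The 1 gene called was Slc46a1 (-0.80 ± 0.095, limma's adjusted p = 0.0090). It encodes the proton-coupled folate transporter and was in the list for its reported uptake of haem. Slc40a1, which encodes the iron exporter ferroportin, differed by -0.58 ± 0.12 (adjusted p = 0.066), and Ccs, the copper chaperone of superoxide dismutase, by 0.23 ± 0.059 (adjusted p = 0.12). Neither was called. Slc31a1, the copper importer gene named here after its values were seen, differed by -0.19 ± 0.056 (adjusted p = 0.17).

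Zinc-dependent enzymes of the secretory pathway and cell surface had a median change of -0.14. Of 20 measured genes 1 was called lower and none higher, against 0.712% and 0.918% of all genes. The groups did not overlap in 7 lower and 0 higher genes, against 7.98% and 11.4% of all genes. Ace, which encodes the zinc peptidase angiotensin-converting enzyme, fell by 0.53 on the log2 scale ± 0.099 (SE; limma's adjusted p = 0.043) and kept the call in 1 of the 6 fits with an array left out, with adjusted p up to 0.15. Car4, a membrane carbonic anhydrase gene, differed by -0.52 ± 0.10 (adjusted p = 0.051), and Car9 by -0.21 ± 0.067 (adjusted p = 0.21). The alkaline phosphatase genes Alpl, Alpi and Akp3, whose proteins receive zinc from ZnT5 and ZnT7, differed by 0.023 ± 0.075, 0.076 ± 0.27 and 0.033 ± 0.059. Alpi varied widely inside each group, from 8.02 to 8.77 in wild type and from 8.13 to 9.10 in the knockout.

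Genes that answer to the other known inducers of metallothioneins were read beside Mt1. Of 15 glucocorticoid-induced genes none was called, with 3 at an unadjusted p under 0.05, against 13.3% of all genes, and a median of 0.038. Those 3 were Sult1a1 (-0.41), Ddit4 (0.35) and Zbtb16 (-0.21), with limma's adjusted p = 0.088, 0.11 and 0.18. Fkbp5, Tsc22d3 and Per1, widely used glucocorticoid targets, differed by 0.055, 0.12 and 0.11 in limma's fit. Of 18 genes of the IL-6 and STAT3 response none was called, again with 3 at an unadjusted p under 0.05 and a median of -0.031. Saa1, an acute-phase gene, differed by -0.73 ± 0.21 (limma's adjusted p = 0.16). Socs3, a feedback inhibitor, and Osmr differed by 0.21 ± 0.072 and 0.17 ± 0.071 (adjusted p = 0.24 and 0.35).

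The mean deviation of that list from its wild type means was -0.24, -0.21 and 0.017 in knockout arrays 1, 2 and 3. Gene by gene the arrays did not keep this order, and knockout array 3 was the highest knockout array in 8 of the 18 genes and the lowest in 5. Hp, the haptoglobin gene, read 6.92 there against 5.52 and 5.61 in the other 2, whereas Reg3g, an antimicrobial lectin gene, read 8.02 against 8.57 and 8.49. The part of these genes in the difference of Mt2 was not tested, and they were named after their values were seen.

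With a median change of -0.064, 1 of 13 measured oxidant-induced targets of NRF2 was called higher, against 0.918% of all genes. It was the cystine transporter gene Slc7a11 (2.03 ± 0.34, adjusted p = 0.028), which is also an ATF4 target and kept the call in only 1 of the 6 fits with an array left out. Hmox1, the haem oxygenase gene, differed by 0.40 ± 0.084 and Me1, the malic enzyme gene, by 0.73 ± 0.17, and neither was called (adjusted p = 0.066 and 0.087). Gclc and Gclm, which encode the enzyme that starts glutathione synthesis, differed by -0.012 and -0.064.

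Of 20 ER stress targets of ATF4, ATF6 or XBP1, 18 were higher and none lower, against 0.918% and 0.712% of all genes. Their median change was 0.82. The 3 with the smallest p, Sdf2l1, Derl3 and Pdia6, rose by 1.17 ± 0.069, 2.49 ± 0.17 and 0.94 ± 0.075. Hspa5, which encodes the chaperone BiP, rose by 0.85 ± 0.087 and Ddit3, which encodes CHOP, by 0.79 ± 0.098. Many of these genes were already known to rise in these arrays when the list was written, so the count is a description. Their mean deviations were 1.01, 1.00 and 0.96 in the 3 knockout arrays. A mean over 20 genes evens out differences between arrays, so it cannot be set against the values of Mt1 or Mt2. Whether the rise of Mt1 depends on ER stress signalling was not tested.

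**Figure D4:**
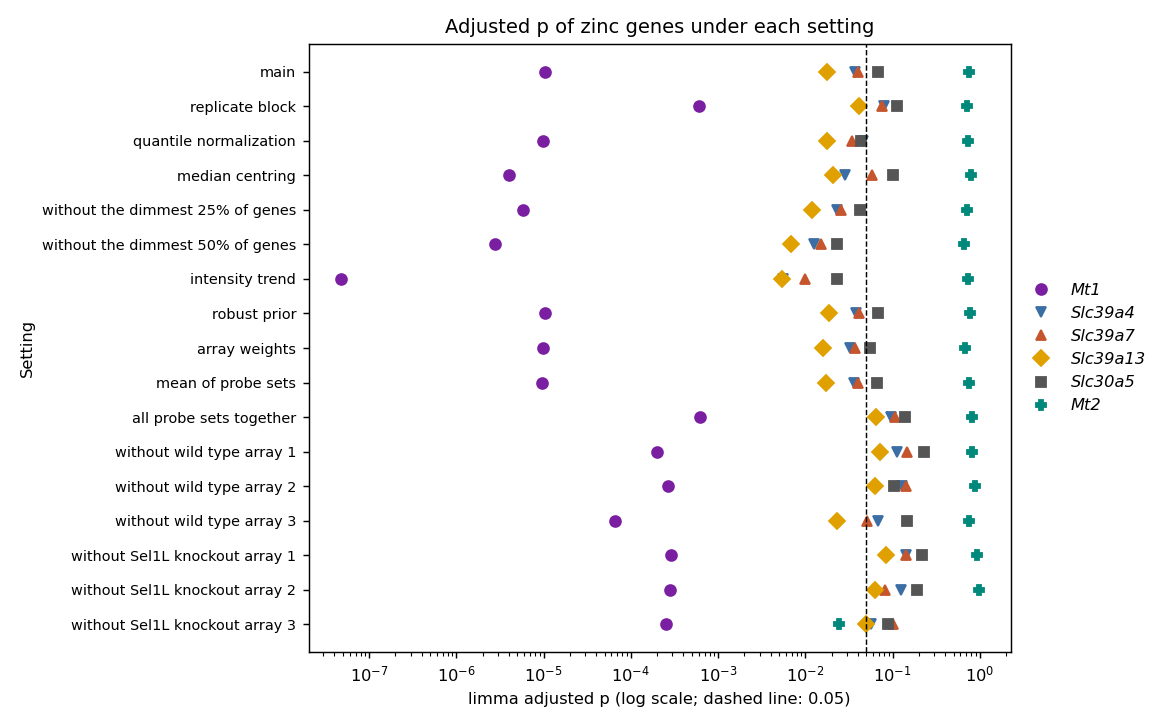
Adjusted p from limma on a log scale (horizontal axis) for Mt1, Mt2 and 4 zinc carrier genes under the reported setting and 16 alternatives (vertical axis), with 0.05 as the dashed line. Mt1 stays at or below 0.00062 throughout, Slc39a4 and Slc39a7 cross the line with any array left out, and Mt2 falls below it only without knockout array 3.

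Sel1l itself read 9.45, 9.67 and 9.54 in the wild type arrays and 8.70, 9.06 and 8.66 in the knockout arrays, lower in each, as the labels say. Array medians lay between 6.32 and 6.36. All 12 colon epithelium markers were above the median gene, and their mean level was 12.14 to 12.27 in wild type and 12.13 to 12.21 in the knockout, with none called. Their groups did not overlap in 4 lower genes and 1 higher gene, against 7.98% and 11.4% of all genes. The largest fall was that of Slc26a3, at -0.36 ± 0.10 (limma's adjusted p = 0.16). Few markers of other cells stood above the median, 1 of 11 for macrophages and dendritic cells, 1 of 10 for T cells, 0 of 9 for B and plasma cells, 4 of 10 for fibroblasts and 1 of 8 for smooth muscle, and none of these was called. Of the small intestine and pancreatic acinar markers, 4 of 11 and 2 of 10 stood above the median, and Rbp2 and Cela1 were called lower. In such bulk samples, fewer cells of a type and less RNA per cell cannot be told apart.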

How the data were processed

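The deposited values are RMA log2 levels from the authors, per the submitters' processing notes; the log2 scale was read from their range, and the sources used here give no software, probe set definition or build. The values were used without renormalization. A single gene was named by 21789 of the 35556 probe sets, with symbols updated through RefSeq (GRCm38.p6), and the brightest of each gene was kept, giving 19936 genes. Knockout was compared with wild type in limma 3.58.1 (R 4.3.3), genotype as the only term, two-sided, Benjamini-Hochberg adjusted over all genes, called under 0.05. SE is moderated.

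Nothing in the labels ties each array to its own mouse, so p-values reflect only how these arrays vary, and their number limits precision. No batch was recorded. Members and lists (7 context, 8 marker lists) were chosen with earlier results of these data known. Named genes are all members, Sel1l, Hspa5 and Ddit3, the 3 smallest p of each context list, and the 5 genes most like Mt1 or Mt2; others are named after their values were seen. On simulated data with 200 changed genes among 19936, the fit called 93% at a true log2 change of 0.5 and 99% at a change of 1. Of its calls 5.42% were false. The simulated noise was normal and independent, with the SDs of the fit itself, so it met the test's assumptions and held no outlying array. These rates therefore do not measure how far the calls on the real arrays can be trusted. Alternatives were a replicate block, quantile normalization, median centring, filters on dim genes, other priors, array weights, other probe set rules and each array left out.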

Additional observations from a re-analysis of the deposited data

How the results depend on the processing

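The rise of Mt1 passed under all 16 alternatives. The count of genes called, 325, was 598 without the dimmest 50% of genes, 614 with an intensity trend, 161 with all probe sets tested together, and 69 to 303 with an array left out. Members called higher, 2, fell to 1 with a replicate block, median centring or all probe sets together (1 to 2 with an array left out), and rose to 3 with quantile normalization, either filter on dim genes or the intensity trend. Members called lower, 1, fell to 0 with the replicate block or all probe sets together (0 with any array left out). Context genes called, 21, ranged from 13 to 25 with an array left out, with 13 without knockout array 1. Sel1l (-0.74) was not called with all probe sets together (adjusted p = 0.073), and leaving out an array gave changes of -0.87 to -0.67, with the call kept in 2 of 6 such fits (adjusted p up to 0.087). The log2 change of Mt1 minus that of Mt2 ran from 1.24, without knockout array 3, to 1.81. Slc39a5 turned to 0.0081 without knockout array 3 (lowest -0.047) and Slc39a14 to -0.020 without knockout array 2 (highest 0.11). The labels do not say what a replicate number marks, so the numbers were not taken as pairs. Same-numbered arrays deviated with correlations of -0.10, 0.15 and 0.15, and differently numbered ones with -0.26 to 0.12. With 3 arrays a group these values cannot settle whether arrays were paired. With the numbers as a replicate block, 217 genes were called and Mt1 kept its call (limma's adjusted p = 0.00061). Slc39a4 and Slc39a7 lost theirs in that fit (adjusted p = 0.080 and 0.076). Where a call was lost with fewer arrays, fewer samples entered the fit; other causes were not tested.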
